A study of Mus musculus with 6 samples.

Results

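The genes described here code for splicing factors and neuronal RNA-binding proteins. They were chosen by symbol, from probe sets annotated to a single gene whose name starts with Hnrnp, Srsf, Celf, Elavl, Rbfox, Nova, Mbnl, Ptbp or Khdrbs, or is Msi1, Msi2 or Qk. A probe set, the group of short probes on the array that together give 1 signal, was kept if its mean signal reached 100 in at least 1 of the 3 groups. This left 159 probe sets of 55 genes, of 187 probe sets of 56 genes with such names and of 45101 probe sets on the array. Hnrnp genes gave 54 probe sets, Srsf 30, Celf and Elavl 15 each, Rbfox 10, Khdrbs, Mbnl, Msi and Qk 7 each, Ptbp 5 and Nova 2. Mbnl3 was the gene not kept, with 3 probe sets and a highest group mean of 44.6. Nearest to the limit lay Hnrnpab 1431349_at, with a highest group mean of 87.8, below it and Hnrnpab 1459880_at, with 101, above it. Of the 159 probe sets, 150 reached 100 in all 3 groups, and 9 did so in only 1 or 2 groups.

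These proteins bind pre-mRNA or mRNA and set which exons are joined and how stable, well translated and well transported the message is. Serine/arginine-rich proteins, encoded by Srsf genes, mostly promote the use of exons that they bind, whereas heterogeneous nuclear ribonucleoproteins, encoded by Hnrnp genes, often act against it. Rbfox, Nova, Celf, Mbnl, Khdrbs, Ptbp2 and Elavl proteins regulate neuronal exons or neuronal mRNAs, and Qk acts in glia, above all on myelin transcripts. Many of these genes make several transcripts themselves, so that probe sets of 1 gene need not measure the same RNA.

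All animals were male Tg2576 mice on C57BL/6, which carry human APP695 with the Swedish double mutation under the prion promoter. The Tg-18mo-ACEI group drank water with captopril, an inhibitor of angiotensin-converting enzyme (ACE), at 20 mg/kg/day for 6 months from 12 to 18 months of age. Tg-18mo mice drank plain water to the same age, and Tg-12mo mice were taken at 12 months. Each chip carried hippocampal RNA pooled from 4 mice, with 2 chips per group and 6 in all. No wild-type mice were analysed here, and the mouse probe sets do not check the human transgene. Because mice were pooled, p-values measure the spread between chips of a group, which may be technical. Chip batch and scan day were not given in the sources used here.

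Each chip had been scaled to the same trimmed mean of 600. Replicate chips correlated with r of 0.994 to 0.995 over the 159 probe sets, and chips of different groups with r of 0.949 to 0.971. The median gap between replicate chips was 0.080 to 0.090 on the log2 scale. Gapdh 3′/5′ signal ratios were 0.828 to 0.862 on all chips, whereas those of beta-actin were 1.45 and 1.38 in Tg-18mo-ACEI, 1.98 and 1.88 in Tg-18mo and 1.83 and 1.77 in Tg-12mo. The highest signal was 21934 to 25102 on chips at 18 months and 39494 and 40189.9 at 12 months. Differences below are on the log2 scale with their standard error (SE, n = 2 chips per group), and a probe set is said to have passed at an adjusted p under 0.05 in limma, over 23262 probe sets tested. Names ending in a_at mark probe sets shared by transcripts of 1 gene, and those in s_at or x_at probe sets that can also match other genes, so that changes on these are less certain. In tissue, fewer cells of a type and less RNA per cell cannot be told apart.

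With captopril, more of these probe sets were higher than lower. In Tg-18mo-ACEI against Tg-18mo, 50 of 159 rose and 16 fell. The background was 15.9% higher and 17.7% lower among the 23262 tested. The median difference was 0.10 over the 159 and -0.04 over all tested. Without the 9 probe sets that reached 100 in only 1 or 2 groups, 47 of 150 rose and 16 fell. Over classes of mean signal (under 500, 500 to 2000, 2000 to 5000, and 5000 or more), 11 of 35, 22 of 58, 11 of 42 and 6 of 24 members rose, against 11.1%, 20.4%, 23.4% and 11.3% of all tested. Among the brightest probe set of each gene, meaning the one with the highest mean over the chips, 16 of 55 rose and 6 fell, against 12.6% and 21.7% of the brightest probe sets of all 12325 genes. Counts rested partly on single chips: leaving out replicate 2 of Tg-18mo-ACEI left 30 higher and 9 lower, replicate 2 of Tg-18mo 33 and 9, and replicate 1 of Tg-18mo 38 and 10. Calls were lost over the whole array too: without replicate 2 of Tg-18mo-ACEI, 18.9% of members were higher and 5.66% lower, against 9.72% and 9.81% of all tested.

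The direction was uneven among families. Of Srsf probe sets 12 of 30 rose and 3 fell (median 0.15), of Elavl 6 of 15 rose and 2 fell (0.19), and of Hnrnp 15 of 54 rose and 5 fell (0.04). Celf had 4 of 15 higher and 2 lower, Rbfox 3 of 10 higher and 1 lower, Msi 3 of 7 higher, and Qk and Mbnl 2 of 7 higher each, with none lower in the last 3. Khdrbs had 1 of 7 higher. Of 5 Ptbp probe sets 2 rose and 2 fell, and 1 of 2 Nova probe sets fell. Probe sets of 1 gene are not independent. On the brightest probe set of each gene, rises numbered 4 of 10 for Srsf, 1 of 4 for Elavl and 4 of 19 for Hnrnp. They were 2 of 6 for Celf, 1 of 3 for Rbfox, 2 of 3 for Ptbp and 2 of 2 for Mbnl. Msi (2 genes), Khdrbs (3), Nova (2) and Qk (1) had 0, against 12.6% of all genes. With each chip divided by its median instead, 59 of the 159 probe sets rose and 12 fell. The shares over all tested then shifted too, to 16.9% higher and 13.8% lower.

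**Figure D1:**
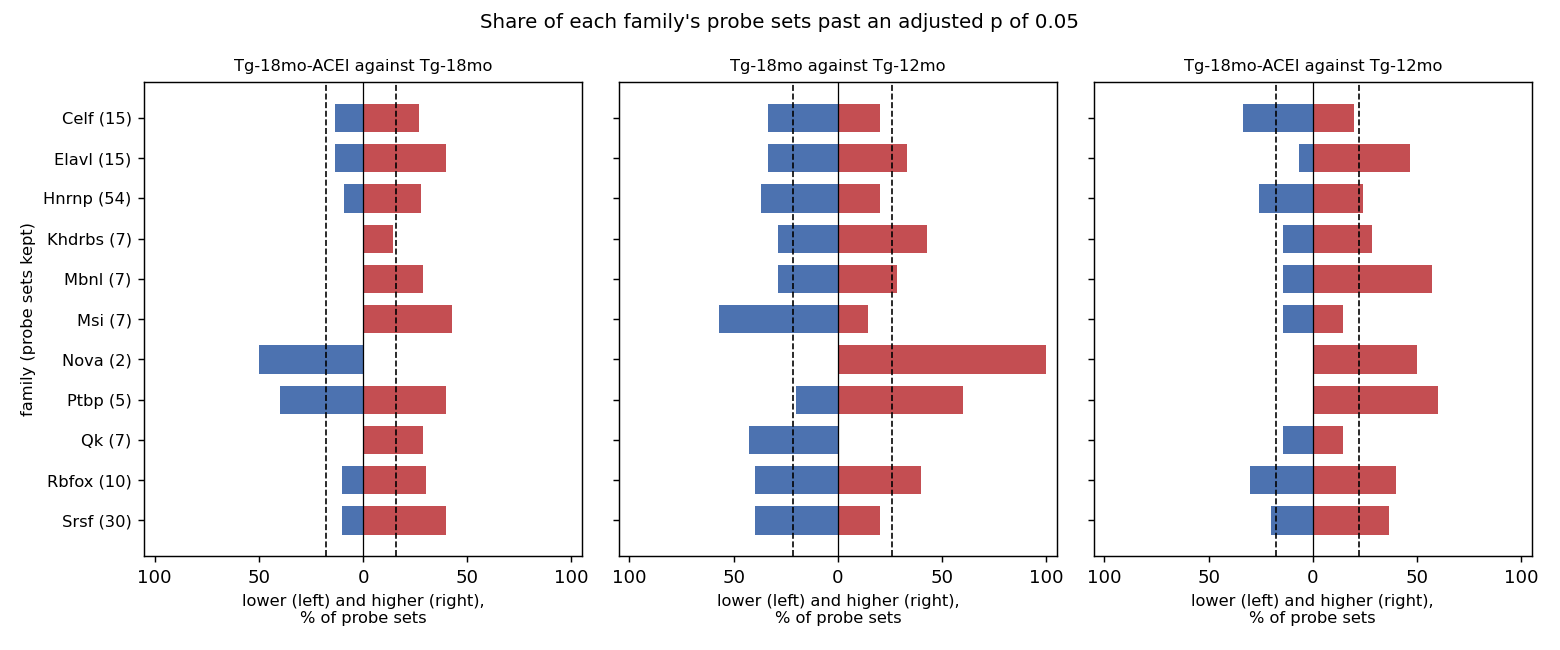
Share of probe sets of each family that passed higher (red, to the right) or lower (blue, to the left) in the 3 comparisons, in % of the probe sets kept, whose number stands in brackets. Dashed lines mark the shares over all 23262 probe sets tested, such as 15.9% higher and 17.7% lower in Tg-18mo-ACEI against Tg-18mo. In that comparison the red bars of Srsf and Elavl reach 40.0%.

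Of the 159, 12 rose at least 2-fold with captopril and 0 fell that far, where 3.07% and 1.16% of all probe sets did. Of the 12, 3 (of Celf1, Rbfox1 and Srsf11) reached a mean of 100 in only 1 or 2 groups. Most of the 12 were not the brightest of their gene. Of the 104 other probe sets 11 rose that far, against 547 of 8797 over all genes. Of the 55 brightest 1 did, against 109 of 12325. At the thresholds of the study's methods, an unadjusted p of 0.01 or less, at least 2-fold and a mean of 100 or more in 1 of the 2 groups, limma gave 11 higher and 0 lower, against 3.03% and 1.06% of all. The largest difference was that of Hnrnpu, which encodes a nuclear matrix protein that binds chromatin and RNA. Its probe set 1450849_at gave 3770.2 and 3676 with captopril, while untreated chips had 657 and 669 at 18 months and 908 and 897 at 12 months. The treated chips thus stood far above those of both other groups, with a difference of 2.49 ± 0.06 from Tg-18mo (adjusted p = 1.8e-07). The other Hnrnpu probe sets moved less. The brightest, 1423050_s_at, lay at 7682 and 8003 with captopril, above 5985 and 6264 without (difference 0.36 ± 0.05, adjusted p = 7.8e-04).

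Qk encodes quaking, a STAR protein of glia that controls myelin mRNAs. Probe set 1425597_a_at had signals of 1232 and 1335 with captopril, against 249.7 and 312 in Tg-18mo and 811 and 753 in Tg-12mo. The Tg-18mo chips were the lowest and no groups overlapped (captopril difference 2.20 ± 0.11, adjusted p = 5.5e-06). Of the other 6 Qk probe sets, 1451179_a_at rose by 0.28 (adjusted p = 0.0081) and 5 did not pass, among them the brightest, 1417073_a_at, at 5879 and 7097 with captopril and 6959 and 6385 without. The rise of 1451179_a_at missed the threshold without replicate 2 of either group (adjusted p = 0.062 and 0.054).

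Msi2, a musashi protein that regulates translation in progenitor cells, had 3 of 6 probe sets higher with captopril. For 1435521_at, signals were 745 and 687 in Tg-18mo-ACEI, against 149 and 165 in Tg-18mo and 1024 and 949.9 in Tg-12mo. For 1435520_at they were 749 and 668 with captopril, against 289 and 267 in Tg-18mo and 626 and 609.8 in Tg-12mo. On both, the Tg-18mo chips stood apart below the others, and the captopril differences were 2.19 ± 0.10 and 1.35 ± 0.10 (adjusted p = 2.9e-06 and 3.2e-05). The brightest Msi2 probe set, 1436818_a_at, did not pass (1704 and 1673 with captopril, 1522 and 1329 without, difference 0.25, adjusted p = 0.053).

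Rbfox2 and Rbfox1 encode splicing regulators that bind UGCAUG. On 1418245_a_at, the brightest probe set of Rbfox2, signals were 2544 and 2434 in Tg-18mo-ACEI, against 701 and 719 in Tg-18mo and 999 and 1098 in Tg-12mo, with the treated chips highest (captopril difference 1.81 ± 0.07, adjusted p = 1.0e-06). The Rbfox2 probe set 1434938_at lay at 269 and 301 with captopril and 315 and 345 without, and did not pass. Rbfox1 1438217_at rose by 0.49 ± 0.07 (2491 and 2478 with captopril, 1736 and 1807 without), while its brightest probe set, 1418314_a_at, was at 10344 and 10888 with captopril and 10651 and 11302 without, and did not pass. Rbfox3, the NeuN antigen of neurons, fell on 1456149_at by 0.26 on the log2 scale (2179 and 2199 with captopril, 2519.5 and 2709.9 without), but not past the threshold without Tg-18mo replicate 2 (adjusted p = 0.076). Its brightest probe set, 1436450_at, did not pass at 0.09, though it did with quantile normalization (0.16, adjusted p = 0.022).

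**Figure D2:**
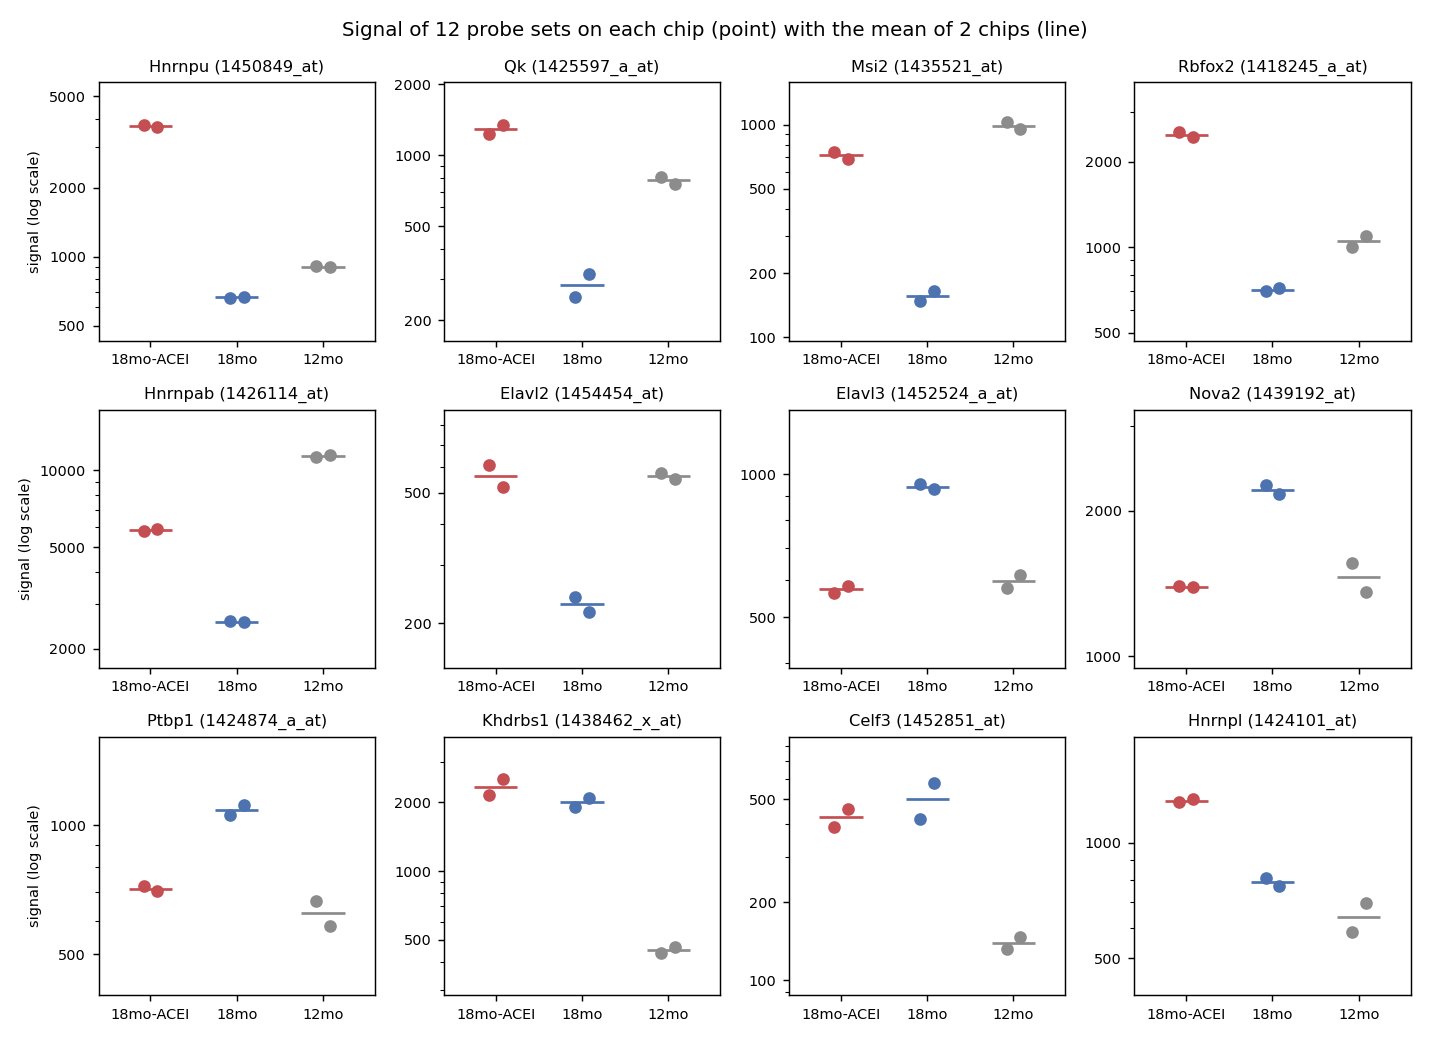
Signal on a log scale (axes differ between panels) of 12 probe sets on each chip, with Tg-18mo-ACEI at the left, Tg-18mo in the middle and Tg-12mo at the right, and the mean of 2 chips as a line. Hnrnpu 1450849_at is at 3770.2 and 3676 on the treated chips and no higher than 908 on the other 4, and for Elavl3 1452524_a_at and Ptbp1 1424874_a_at the Tg-18mo chips are highest.

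Within the SR proteins, Srsf10, which represses splicing when it is dephosphorylated, rose on all 4 of its probe sets, by 0.55 to 0.95. Its brightest, 1423982_at, was at 925 and 818 in Tg-18mo-ACEI, against 511 and 481 in Tg-18mo, without overlap (adjusted p = 0.0029). Srsf11, a factor of the SR family, rose on all 3 probe sets, by 0.23 to 1.34. Its brightest, 1452371_at, gave 2710.3 and 2731 with captopril and 2297 and 2349 without (adjusted p = 0.007), and the 1.34 is of 1439095_at, whose Tg-18mo chips were at only 32.2 and 71.7. Single chips mattered for 1418526_at and 1449121_at of Srsf10 and for 1427269_at and 1439095_at of Srsf11, which no longer passed without at least 1 of the 4 chips (adjusted p up to 0.236). Srsf12 1437168_at rose by 0.63 ± 0.14 (726 and 852 with captopril, 568 and 454 without), and not past the threshold without replicate 2 of either group (adjusted p = 0.084 and 0.074). Srsf2, which binds exonic enhancers, rose on 2 of 4 probe sets, and Srsf1, which does so too, on 1 of 6. These 3 rises also ended without at least 1 chip (adjusted p up to 0.154).

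Srsf5 and Srsf4, also SR proteins, fell. Srsf5 1423130_a_at gave 4714 and 4474 with captopril and 5794 and 6169 without (difference -0.38 ± 0.06, adjusted p = 0.0013). Srsf4 1448778_at gave 2552 and 2514 with captopril and 2869 and 2879 without (-0.18 ± 0.05, adjusted p = 0.03, or 0.097 with each chip divided by its median and 0.086 to 0.128 without any 1 of the 4 chips). On both the treated chips lay below the untreated ones without overlap.

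Ptbp1, the polypyrimidine tract binding protein of non-neuronal cells that holds back neuronal exons, fell on both of its probe sets. The signals of 1424874_a_at were 721 and 703 in Tg-18mo-ACEI, against 1057 and 1114 in Tg-18mo and 667 and 582 in Tg-12mo. Those of 1458284_at were 546 and 531 with captopril, against 769 and 809 in Tg-18mo and 372 and 386 in Tg-12mo. The Tg-18mo chips were thus the highest on both, and the captopril differences were -0.61 ± 0.08 and -0.55 ± 0.08 (adjusted p = 0.0011 and 0.0016). Ptbp2, its neuronal relative, rose on 1423470_at by 0.29 ± 0.05 (3824 and 3884 with captopril, 3213 and 3113 without) and did not pass on 1423471_at. Ptbp3, another relative, rose by 0.37 ± 0.08, but not past the threshold without replicate 1 of either group (adjusted p = 0.073 and 0.059).

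Among genes with at least 2 kept probe sets, Srsf10 and Srsf11 were the 2 of 36 whose probe sets all rose with captopril. Ptbp1 was the 1 whose probe sets all fell. These shares, 5.56% and 2.78%, were near the 4.18% and 4.80% of 5474 such genes on the array, so they do not set the members apart. The 150 bases before the start of these genes are shown because here every probe set gave the same direction. The sequences are from RefSeq (GRCm38.p6), 5′ to 3′ on the strand of the gene, with matches to CCAAT and GGGCGG on either strand in capitals. Srsf11 has 2 annotated starts.
Srsf10, chr4:135855921-135856070, plus strand: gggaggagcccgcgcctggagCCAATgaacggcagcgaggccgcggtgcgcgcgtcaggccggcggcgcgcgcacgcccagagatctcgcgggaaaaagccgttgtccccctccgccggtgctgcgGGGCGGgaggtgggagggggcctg
Srsf11, first start, chr3:158036607-158036756, minus strand: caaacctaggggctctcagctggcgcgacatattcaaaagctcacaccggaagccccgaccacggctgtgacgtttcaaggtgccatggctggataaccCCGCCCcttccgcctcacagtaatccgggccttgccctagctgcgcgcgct
Srsf11, second start, chr3:158031749-158031898, minus strand: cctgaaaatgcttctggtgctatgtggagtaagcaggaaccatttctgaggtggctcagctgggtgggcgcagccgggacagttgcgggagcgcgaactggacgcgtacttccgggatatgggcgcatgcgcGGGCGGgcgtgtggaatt
Ptbp1, chr10:79854282-79854431, plus strand: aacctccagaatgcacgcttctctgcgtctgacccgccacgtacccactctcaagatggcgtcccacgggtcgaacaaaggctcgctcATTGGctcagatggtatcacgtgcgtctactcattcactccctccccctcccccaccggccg
The Srsf10 window held 1 match to CCAAT and 1 to GGGCGG, each Srsf11 window 1 to GGGCGG, and the Ptbp1 window 1 to CCAAT. The TATA box motif TATAAA, searched on both strands too, was in none of these windows. Among the first listed promoter of 27025 genes, 25.3% held CCAAT, 29.0% GGGCGG and 8.08% TATAAA. Of the 55 genes, 47 had an entry, and 42.6%, 55.3% and 8.51% of these held them. The median number of CG dinucleotides was 15 in the 47 windows and 4 over all. These letters are a description and were set against no binding data.

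Elavl proteins bind AU-rich mRNA, Elavl1 in most cells and Elavl2, Elavl3 and Elavl4 in neurons. Elavl2 rose on 3 of 4 probe sets. On 1454454_at it had 607 and 519 with captopril, against 241 and 216 in Tg-18mo and 573 and 548 in Tg-12mo, so that only the Tg-18mo chips stood low (1.30 ± 0.11, adjusted p = 9.6e-05). On 1421881_a_at it had 2071 and 2176 with captopril and 1026 and 926 without (1.12 ± 0.07). Elavl3 fell on 2 of 3. Its probe set 1452524_a_at was at 563 and 582 in Tg-18mo-ACEI, against 953 and 931 in Tg-18mo and 576 and 615 in Tg-12mo (-0.72 ± 0.08, adjusted p = 2.6e-04), and 1455484_at was lower by 0.42 on the log2 scale but did not pass without any 1 of the 4 chips (adjusted p = 0.057 to 0.094). Elavl4 rose on 1428741_at by 0.74 ± 0.11. Elavl1 rose on 1 of 5 probe sets, which did not pass without replicate 1 of either group (adjusted p = 0.096 and 0.081).

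Nova2, which binds YCAY clusters in neuronal pre-mRNA, was the Nova probe set that fell: 1439192_at gave 1395 and 1390.1 in Tg-18mo-ACEI, against 2261 and 2165 in Tg-18mo and 1563 and 1358 in Tg-12mo. Again the Tg-18mo chips stood above all others (captopril difference -0.67 ± 0.07, adjusted p = 3.0e-04). Nova1 1426938_at, at 724 and 789.6 with captopril and 714 and 736 without, did not pass.

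Further Hnrnp genes showed both directions. Hnrnpab, which takes part in mRNA transport, rose on 1426114_at (5801 and 5875 in Tg-18mo-ACEI, against 2559.6 and 2540.3 in Tg-18mo and 11278 and 11471 in Tg-12mo). Here the treated chips lay between the other groups (captopril difference 1.19 ± 0.04, adjusted p = 9.5e-07), and its other 5 probe sets did not pass. Hnrnpl, which binds CA repeats, rose on its 1 probe set, 1424101_at, with 1280.1 and 1299 on the treated chips, 812 and 772 in Tg-18mo and 585 and 699 in Tg-12mo. Hnrnpr, a relative of Syncrip, rose on 1452030_a_at and 1438807_at by 0.81 and 1.10, but its brightest probe set did not pass. Hnrnpdl, a relative of the AU-rich element factor Hnrnpd, fell on 3 of 7 probe sets, the brightest included, which did not pass without replicate 2 of either group (adjusted p = 0.068 and 0.066). On 1449039_a_at it gave 2181 and 2187 with captopril, below the 2859.8 and 2962 without it (-0.41 ± 0.05, adjusted p = 4.1e-04). Hnrnpd itself had 1458273_at higher (0.75) and 1425142_a_at lower (-0.19, adjusted p = 0.02, or 0.076 with each chip divided by its median and up to 0.122 with 1 chip left out).

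With captopril, Mbnl genes rose on 2 of 7 probe sets, and Celf genes rose on 4 of 15 and fell on 2. Celf1, a CUG-binding protein, rose on 1423932_at by 1.41 ± 0.39 from low signals (143 and 183 with captopril, 47.5 and 77.5 without, adjusted p = 0.025, or up to 0.146 with 1 chip left out). Mbnl1 and Mbnl2, the muscleblind proteins, rose on their brightest probe sets by 0.25 ± 0.04 and 0.28 ± 0.05 (adjusted p = 0.003 and 0.0025). Celf4, a neuronal relative of Celf1, rose on 1426930_at (5946 and 6252 with captopril, 5000.2 and 4579 without), and Celf5 1434969_at fell (6666 and 6369 with captopril, 7412 and 8138 without, -0.25 ± 0.06), the last not past the threshold without replicate 2 of either group (adjusted p = 0.071 and 0.076). Khdrbs1, known as Sam68, rose on 1 of 5 probe sets.

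Between the ages, more of these probe sets were lower than higher. In Tg-18mo against Tg-12mo, 40 of 159 probe sets were higher and 58 lower, where 25.9% of all tested were higher and 21.5% lower. The median difference was -0.12 over the 159 and 0.05 over all. Hnrnp had 11 higher and 20 lower, Srsf 6 and 12, Celf 3 and 5, Msi 1 and 4, Qk 0 and 3, Elavl 5 and 5, Rbfox 4 and 4, Mbnl 2 and 2, Khdrbs 3 and 2, Ptbp 3 and 1 and Nova 2 and 0. At least 2-fold, 5 were higher and 8 lower (2.78% and 2.01% of all tested), and at the methods' thresholds 5 and 7 (2.57% and 1.78%). None of the 8 was the brightest of its gene. Of the 104 other probe sets 4 were higher and 8 lower that far, against 297 and 300 of 8797 over all genes. Of the 55 brightest 1 was higher and 0 lower, against 287 and 102 of 12325. Probe sets whose names end in none of a_at, s_at or x_at were also tested alone. Of the 89 such members 33.7% were higher and 34.8% lower, against 27.4% and 18.3% of all 16729 such probe sets. This comparison shares the Tg-18mo chips with the one on captopril, so that a deviation of these 2 chips enters both with opposite sign.

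The share lower at 18 months rose with signal strength over the whole array. Of probe sets with a mean of 5000 or more over the chips, 18 of 24 members were lower at 18 months, and 68.3% of the 1709 such probe sets on the array. Their median difference was -0.38 for members and -0.30 for all, and -0.15 and -0.003 with quantile normalization. Below 500, 6 of 35 members were lower, against 12.0% of all. From 500 to 2000, 19 of 58 members were lower and 26 higher, against 20.0% and 36.8% of all. Over all 159 with quantile normalization, 20.8% were higher and 34.6% lower, against 22.1% and 21.7% of all tested. The highest signal per chip, 39494 or more at 12 months and 25102 or less at 18 months, moved with this pattern, and its part in it was not tested.

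**Figure D3:**
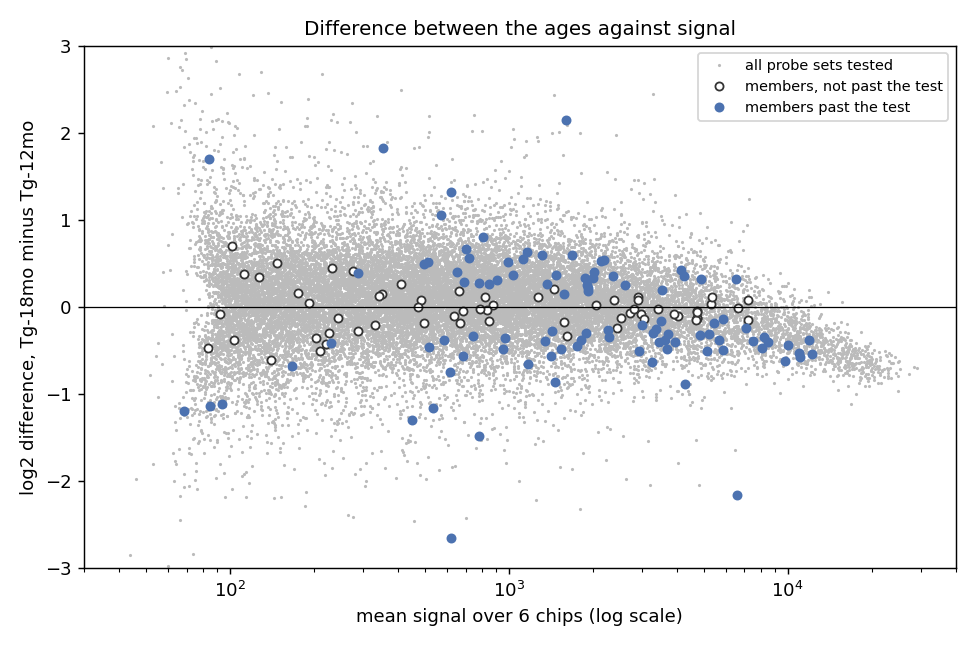
Log2 difference, Tg-18mo minus Tg-12mo, against the mean signal over 6 chips (log scale) for all 23262 probe sets tested (grey) and the 159 members (blue where they passed, open where not). 32 probe sets lie outside the axes. Above 5000 most points lie below 0, where 68.3% of all and 18 of 24 members passed as lower.

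Bright members gave several of these falls. Rbfox3 1436450_at had 9249 and 9405 in Tg-18mo, against 13695 and 14004 in Tg-12mo, and Hnrnpk 1460547_a_at, a poly(C)-binding protein, 10821 and 10433 in Tg-18mo, against 16231 and 14759.8 in Tg-12mo. Rbfox1 1418314_a_at was at 10651 and 11302 in Tg-18mo, against 13818 and 14681 in Tg-12mo. All 3 were lower without overlap (differences -0.57, -0.54 and -0.38), but with quantile normalization Hnrnpk and Rbfox1 were at -0.15 and -0.01 and did not pass (adjusted p = 0.12 and 0.90).

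The 4 largest falls at 18 months were of probe sets already given above per chip. Msi2 1435521_at differed by -2.66 ± 0.10 (adjusted p = 2.2e-06), Hnrnpab 1426114_at by -2.16 ± 0.04 (adjusted p = 1.3e-07), Qk 1425597_a_at by -1.48 ± 0.11 and Elavl2 1454454_at by -1.30 ± 0.11. Each also passed with quantile normalization. Hnrnpu 1450849_at was lower by 0.44 on the log2 scale.

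Among those higher at 18 months, Khdrbs1 1438462_x_at was at 2153 and 2542 with captopril and 1903 and 2098 without, against 438 and 465 in Tg-12mo. Both groups at 18 months lay far above the younger one (age difference 2.15 ± 0.09, adjusted p = 3.0e-06). Probe sets ending in x_at contain probes that can match other transcripts, and 1437389_x_at of the same gene fell by 0.86 on the log2 scale. Celf3, a brain member of the Celf family, had 391 and 459.8 with captopril and 420.1 and 577 without, against 132 and 146 in Tg-12mo (age difference 1.82 ± 0.17, adjusted p = 7.4e-05). Elavl3 rose on all 3 probe sets, by 0.40 to 1.32, Ptbp1 on both, by 0.80 and 1.06, and Nova2 by 0.60 ± 0.07. Hnrnpm and Hnrnph3, which bind G-rich or GU-rich RNA, rose by 0.55 and 0.51. Elavl1 rose on its brightest probe set by 0.63 ± 0.09, but of its 5 probe sets 2 were higher and 1 lower.

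**Figure D4:**
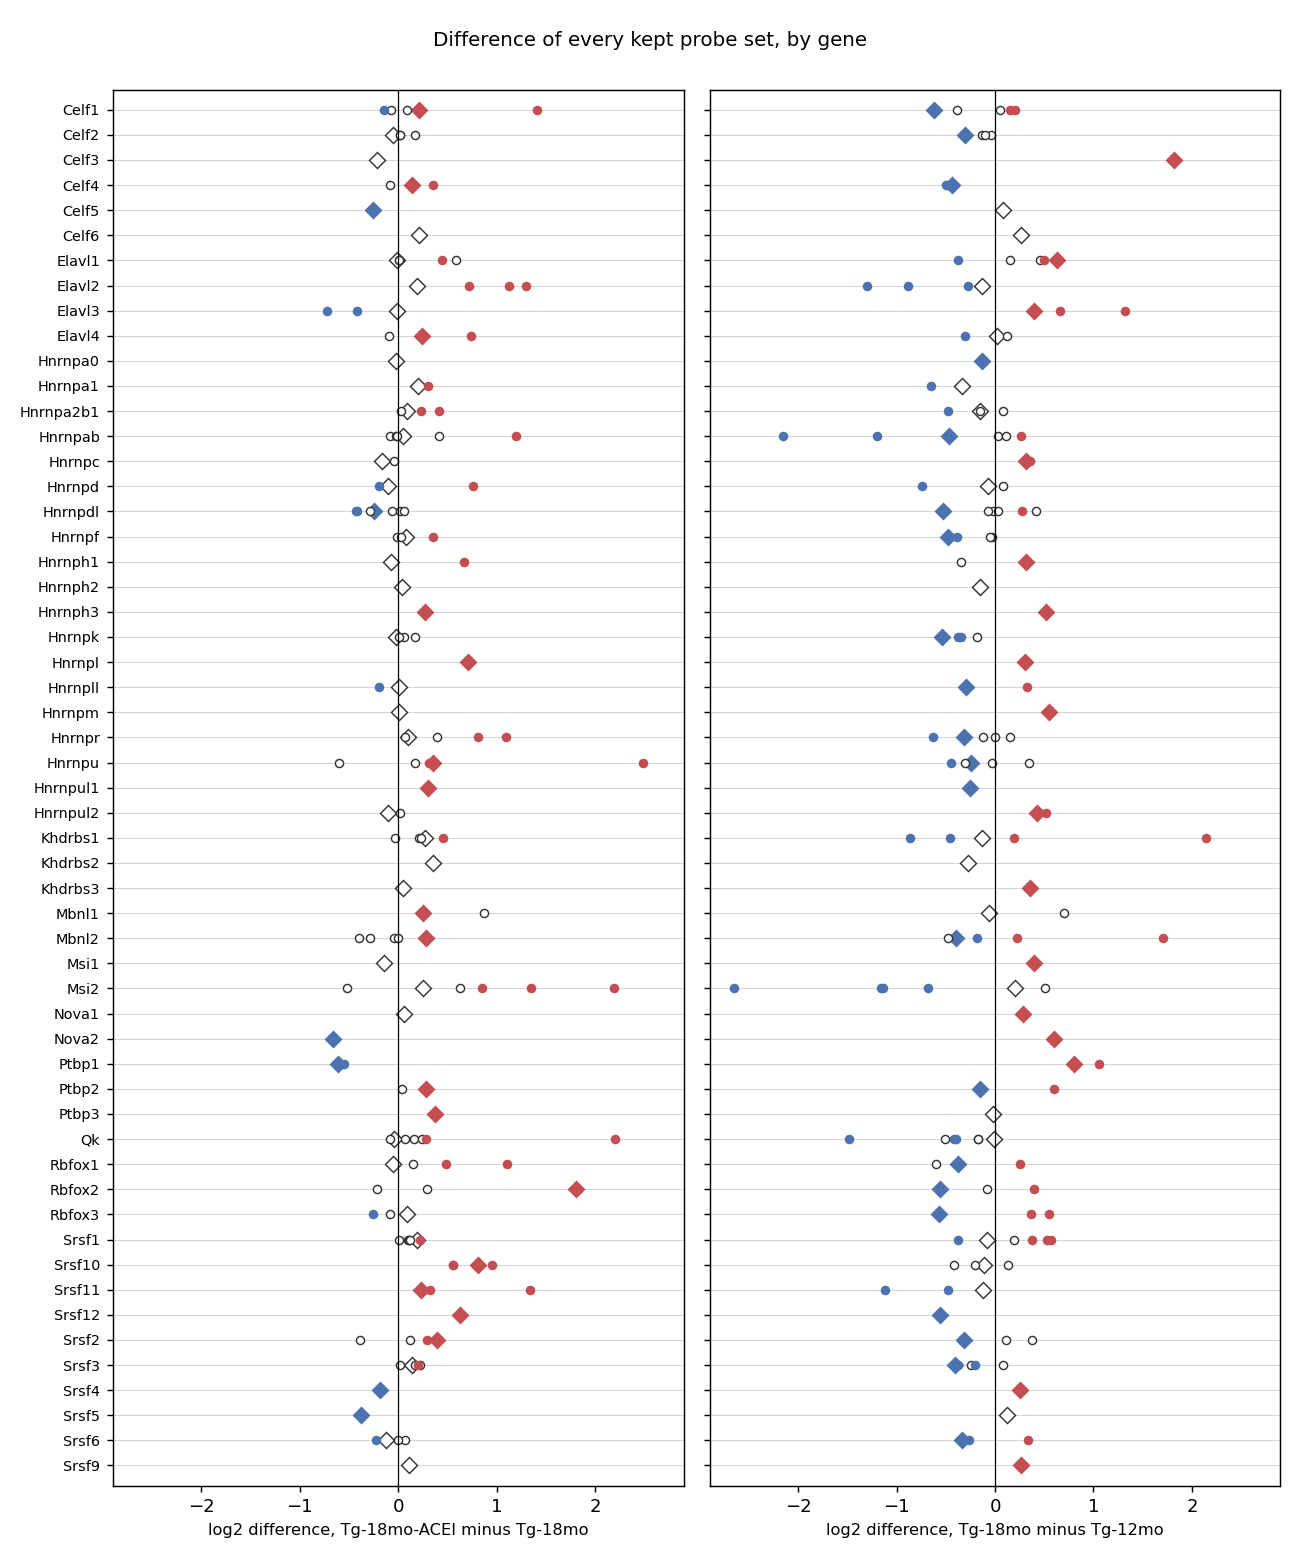
Log2 difference of every kept probe set (symbol) of the 55 genes, for Tg-18mo-ACEI minus Tg-18mo (left) and Tg-18mo minus Tg-12mo (right). Diamonds mark the brightest probe set of a gene, filled symbols passed (red higher, blue lower) and open ones did not. On the left 50 filled symbols lie above 0 and 16 below, and on the right 40 and 58.

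Treated old mice against untreated younger ones gave 50 probe sets higher and 33 lower in Tg-18mo-ACEI against Tg-12mo, where the background was 22.3% and 17.7% (median 0.07 for members, 0.05 for all). At least 2-fold, 7 were higher and 0 lower (2.24% and 1.34% of all), and at the methods' thresholds 6 and 0 (2.05% and 1.24%). Of the 55 brightest probe sets 3 were higher at least 2-fold, against 129 of 12325 over all genes. Of the 104 others 4 were, against 342 of 8797. Khdrbs1 1438462_x_at differed by 2.37, Hnrnpu 1450849_at by 2.04, Celf3 1452851_at by 1.61, Rbfox2 1418245_a_at by 1.25 and Hnrnpl 1424101_at by 1.01, all higher. Of those that passed, the lowest was Hnrnpab 1426114_at at -0.96, followed by the brightest probe set of Hnrnpdl, 1424251_a_at, at -0.78 (8768 and 8174 on the treated chips, 14119.8 and 14977 on the younger ones). Elavl2 1454454_at, Elavl3 1452524_a_at, Nova2 1439192_at and Ptbp1 1424874_a_at, all of which had passed in both other comparisons, did not pass here (0.00, -0.06, -0.07 and 0.19, with SE of 0.11, 0.08, 0.07 and 0.08). Since the 3 comparisons share chips, these values describe 3 group levels and are not separate evidence. Of members with a mean of 5000 or more, 17 of 24 were lower, against 70.7% of all such probe sets.

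Probe sets of the same gene often disagreed. For each other probe set of a gene, its difference was set against that of the brightest within each chip, which removes any scaling of a whole chip. At an adjusted p under 0.05, 17 of 104 such pairs changed unequally in Tg-18mo-ACEI against Tg-18mo, 40 in Tg-18mo against Tg-12mo and 29 in Tg-18mo-ACEI against Tg-12mo. The shares over 8797 pairs of all genes were 19.6%, 35.5% and 24.1%, close to those of the members (16.3%, 38.5% and 27.9%). Only 6 of the 17, 17 of the 40 and 0 of the 29 passed under each of the 12 or 13 alternatives run for a pair, which did not include the methods' t-test, where the 29 came to 1 and 0 without Tg-18mo-ACEI replicates 1 and 2 and to 18 without Tg-12mo replicate 1. The 17 came to 6 to 10 without any 1 of the 4 chips compared, and the 40 to 20 and 24 without Tg-18mo replicates 1 and 2.

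The pairs of the captopril comparison that passed under each of these alternatives were Hnrnpu 1450849_at, Qk 1425597_a_at, Msi2 1435521_at and 1435520_at and Hnrnpab 1426114_at, which rose by 2.13, 2.24, 1.95, 1.10 and 1.15 more than the brightest probe set of their gene, and Rbfox2 1434938_at. The last differed by -2.02 from the brightest Rbfox2 probe set, which rose alone. In the age comparison Msi2 1435521_at differed from its gene's brightest by -2.86, Hnrnpab 1426114_at by -1.69, Qk 1425597_a_at by -1.48 and Khdrbs1 1438462_x_at by 2.28. Which transcripts or exons these probe sets match was not analysed here, nor was their distance from the 3′ end. The beta-actin 3′/5′ ratios, lowest in Tg-18mo-ACEI, moved with the captopril comparison, and their part in it was not tested.

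**Figure D5:**
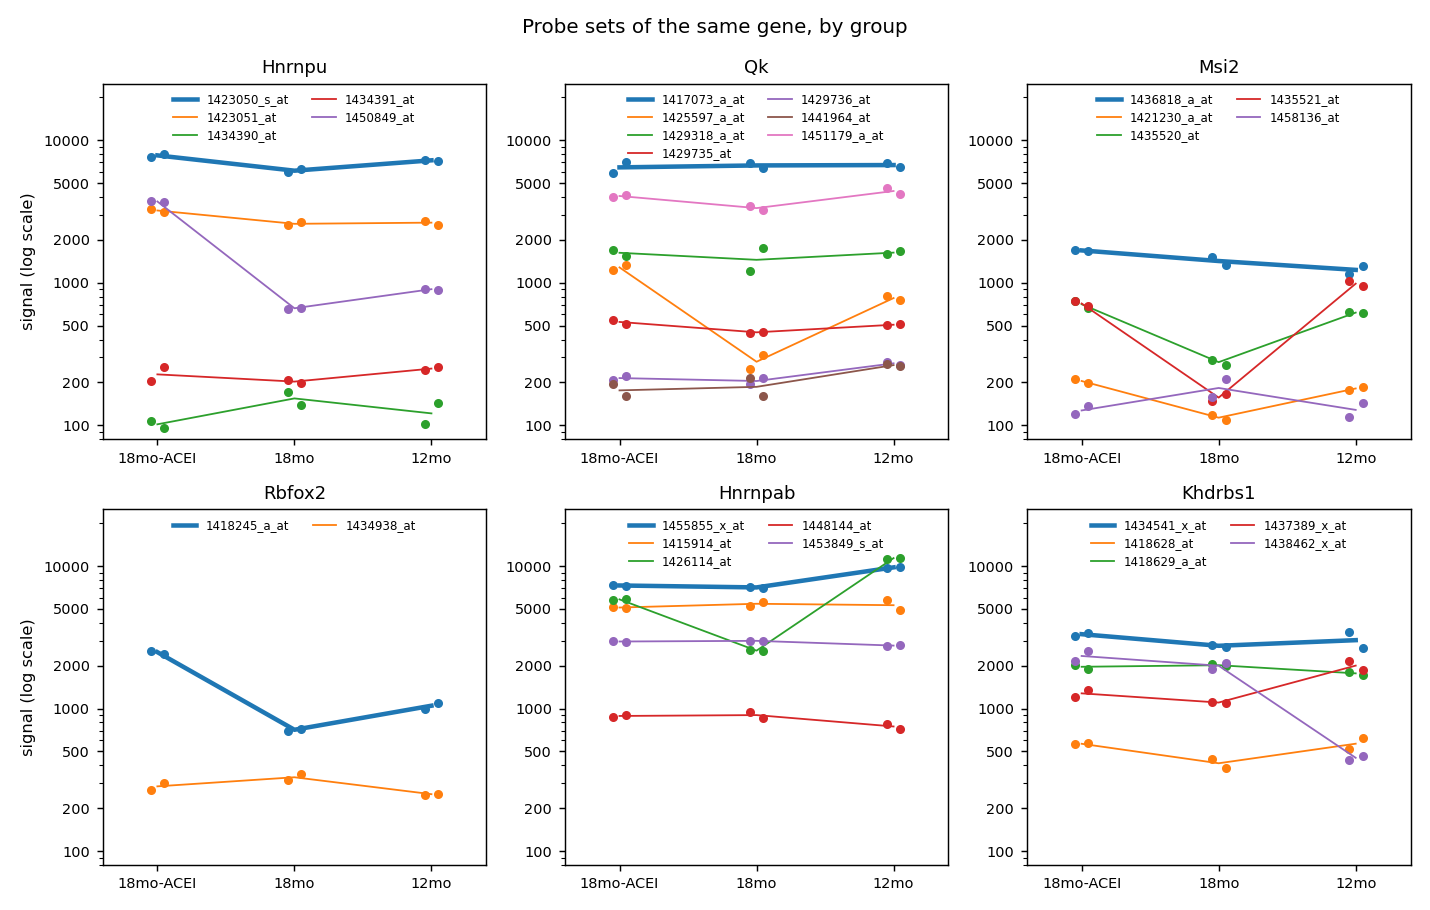
Signal (log scale) of the probe sets of 6 genes with group means of 100 or more in all 3 groups, by group, with Tg-18mo-ACEI at the left. Points are chips, lines join the geometric means of 2 chips, and the thick line is the brightest probe set. For Hnrnpu, Qk, Msi2, Hnrnpab and Khdrbs1, at least 1 thin line spans a wider range than the thick line, and for Rbfox2 the thick line spans the widest.

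Probe sets passing in opposite directions were found in 2 of 36 genes with captopril (Celf1 and Hnrnpd), 13 between the ages and 12 in Tg-18mo-ACEI against Tg-12mo, where 5.15%, 14.1% and 8.35% of genes with at least 2 probe sets had them. The member genes had 3.89 probe sets on average and those of the array 2.61. Among genes with at least 4, the counts were 1, 9 and 11 of 21 members, against 14.8%, 32.7% and 23.1% of 785 genes. Between the ages these genes included Elavl1, Rbfox1, Rbfox2, Rbfox3, Srsf1, Srsf6, Mbnl2 and Hnrnpab. Rbfox3, for example, had 1456149_at higher at 18 months (2519.5 and 2709.9, against 1759 and 1822 in Tg-12mo) and its brightest probe set lower. With quantile normalization the counts were 3, 9 and 4. Without any 1 of the 4 chips compared the 2 came to 0 or 1, the 13 to 8 without Tg-18mo replicate 1, and the 12 to 7 without either Tg-18mo-ACEI chip.

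Other genes of RNA processing were taken from lists, on the brightest probe set of each gene, where 12.6% of all genes were higher and 21.7% lower with captopril and 28.0% and 21.0% between the ages. Of 28 SR-related proteins and SR kinases, 9 rose and 4 fell with captopril, and 5 were higher and 10 lower between the ages. Srpk2, a kinase of SR proteins, gave 4055 and 4429.9 with captopril, against 1958 and 1923 in Tg-18mo and 4079 and 3871 in Tg-12mo, with the Tg-18mo chips alone low (captopril 1.13 ± 0.06, adjusted p = 5.3e-06). Srrm2, a scaffold of nuclear speckles, was likewise low in Tg-18mo, with 7085 and 6837 in Tg-18mo-ACEI, 4452 and 4404 in Tg-18mo and 7194 and 7448 in Tg-12mo. Of 35 other neuronal RNA-binding proteins, 10 rose and 4 fell with captopril and 8 were higher and 14 lower between the ages. Fxr2, a relative of the fragile X protein, was at 529.9 and 699 in Tg-18mo-ACEI, against 1122 and 1064 in Tg-18mo and 498 and 549.5 in Tg-12mo, highest in Tg-18mo (captopril -0.84 ± 0.13). Cpeb1, which regulates translation through the poly(A) tail, rose by 0.61 ± 0.07.

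Genes of the general splicing machinery changed in both directions. Of 33 core spliceosome genes 3 rose and 9 fell with captopril (median -0.08), against 12.6% and 21.7% of all genes, and 13 were higher and 8 lower between the ages. Prpf4, of the U4/U6 particle, rose with captopril (0.61 ± 0.11, adjusted p = 0.0036), and Sf3b3, of the U2 particle, was higher with age (1838 and 1805 at 18 months, 964 and 1045 at 12 months). Of 10 genes of the exon junction complex and nonsense-mediated decay, 2 rose and 4 fell with captopril and 6 were higher and 1 lower between the ages. Upf1, the helicase of this decay, gave 251 and 264 with captopril, 401 and 320.1 in Tg-18mo and 219 and 183 in Tg-12mo.

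Markers of other tissue moved with the captopril comparison. Of 9 choroid plexus genes, 8 were lower in Tg-18mo-ACEI (median -2.43, summed signal 22254 and 20332 against 24895 and 27365 in Tg-18mo and 43914 and 43532 in Tg-12mo). Ttr, which made up most of these sums, was the 1 that did not pass (20358 and 18370.3 with captopril, 17548 and 19806 without, difference 0.05, adjusted p = 0.59). Of 6 genes of cerebellum, 3 rose and 3 fell, and their sum was 6900.3 and 7441 in Tg-18mo-ACEI against 9466 and 9741 in Tg-18mo. Gabra6 and Pcp2, which define granule and Purkinje cells, were higher in Tg-18mo-ACEI: Gabra6 was at 158 and 192 there and 21.6 and 7.93 in Tg-18mo, and Pcp2 at 275 and 287 there and 39.0 and 38.3 in Tg-18mo. Neuronal markers, led by Snap25, summed to 93606 and 89948 with captopril, 94082 and 98752 in Tg-18mo and 121389 and 121737 in Tg-12mo, with 1 of 10 higher and 3 lower with captopril. The neuronal marker Prox1, of dentate granule cells, was the 1 that rose (448 and 442 with captopril, 162 and 139 without). Between the ages 2 neuronal markers were higher, Slc17a7 by 1.30 and Gad2 by 0.54, and 6 were lower. The 6 included Rbfox3 1436450_at, which is also a member of the set described here and part of the neuronal sum. Most of the neuronal sum came from probe sets with a mean of 5000 or more, of which 68.3% on the array were lower at 18 months. Snap25 was among the 6 but did not pass with quantile normalization (0.07, adjusted p = 0.35 in limma). Of 7 oligodendrocyte markers 4 fell with captopril and of 8 astrocyte markers 3 rose and 2 fell, and of 7 microglial markers 2 rose (Cx3cr1 by 0.54 and P2ry12 by 0.53) and 2 fell (C1qa at -0.43 and Tmem119 at -0.27), with 4 higher and 2 lower between the ages. The microglial sum was 16842 to 17610 on all chips. Their part in the differences of the splicing factors was not tested.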

How the data were processed

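Hippocampal RNA was measured on Affymetrix MG430 2.0 arrays. The deposited table holds 1 linear intensity (signal) for each probe set and chip, which the authors made with the GCOS software of Affymetrix and scaled to a target of 600 (the mean after trimming 2% at each end was 600 on every chip). No detection calls, probe sequences or scanner files were used here, so precision is limited by the number of chips. Groups came from the sample labels. Genes were named from the platform annotation given with the data, and all 159 member probe sets matched RefSeq by gene identifier. Probe sets with several symbols were left out of the set.

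Signals were taken to log2 without a pseudocount. Control probe sets and those under a mean of 100 in all 3 groups were left out. A model of group means over the 6 chips was fitted with limma 3.58.1 in R 4.3.3 (lmFit, eBayes with intensity trend, 3 residual and 5.37 prior degrees of freedom), with Benjamini-Hochberg adjustment over 23262 probe sets. Pairs of probe sets were fitted in the same way over 8797 pairs. Both fits were also run on simulated chips with planted changes and independent noise. These held no effect shared by a chip or pool, so such runs cannot vouch for the calls above. Named are the 8 highest and 8 lowest members per comparison that passed without overlap, the brightest probe set of each gene, genes with opposite or unequal probe sets, those nearest to the limit of 100 and 2 genes per list. Srsf10, Srsf11 and a few others beyond this were singled out after their values were seen. Members and lists were chosen with earlier results of these data known.

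The alternatives tried were a pseudocount of 32, no filter, a mean of 200, quantile normalization, division by the median, fits of 2 groups, the replicate block, no intensity trend, the methods' t-test, the methods' thresholds, the brightest or plain probe sets alone, and leaving out each chip. The labels do not say whether chips with equal replicate numbers share a batch, so the main fit did not pair them.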

Additional observations from a re-analysis of the deposited data

How the results depend on the processing

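Main counts are given as higher and lower members for Tg-18mo-ACEI against Tg-18mo (50 and 16), Tg-18mo against Tg-12mo (40 and 58) and Tg-18mo-ACEI against Tg-12mo (50 and 33). The methods' t-test after Benjamini-Hochberg adjustment gave 2 and 0, 4 and 10, and 1 and 2 on linear signals, and 2 and 0, 6 and 7, and 0 and 0 on log2 signals. Few passed over the whole array too. On linear signals 0.34% and 0.17%, 2.73% and 2.41%, and 0.51% and 0.58% of all tested did. On log2 signals these shares were 0.19% and 0.12%, 2.42% and 2.13%, and 0.04% and 0.06%. With 2 chips per group, 52, 80 and 73 members had an unadjusted p under 0.05 on linear signals, and the share over all tested at that threshold is not given here. The methods' thresholds of an unadjusted p of 0.01 or less and at least 2-fold gave 11 and 0, 5 and 7, and 6 and 0 with limma. With the t-test they gave 7 and 0, 4 and 5, and 3 and 0. The shares over all tested stand above for limma and are not given here for the t-test. With the brightest probe set of each gene, 55 in all, the counts were 17 and 6, 16 and 21, and 18 and 16. The shares over all genes were then 12.9% and 22.4%, 28.5% and 21.5%, and 20.6% and 21.0%. With 89 plain probe sets the counts were 33 and 6 in the first comparison, against 16.7% and 17.5% of all plain probe sets. In the second 31 were lower and in the third 16. Of the 89, 33.7% were higher and 34.8% lower in the second, against 27.4% and 18.3% of all plain probe sets. In the third, 41.6% were higher and 18.0% lower, against 24.6% and 13.8%. Both selections test fewer members. Without intensity trend 10 members (6.29%) fell with captopril and 22.0% rose, against 12.8% and 12.3% of all tested. Between the ages 20.1% of members were then higher and 29.6% lower, against 23.0% and 18.6%.

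Leaving out each chip in turn, 30 to 55 rose and 9 to 19 fell with captopril, 32 to 39 were higher and 45 to 55 lower between the ages, and 38 to 51 were higher and 27 to 34 lower in Tg-18mo-ACEI against Tg-12mo. The 16 that fell with captopril came to 10 without Tg-18mo replicate 1 and to 9 without Tg-18mo replicate 2 or Tg-18mo-ACEI replicate 2. Where a group was left with 1 chip, it was assumed to vary like the others.

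Unequal pairs (17, 40 and 29) were the least stable. They came to 6, 17 and 0 without the filter on low signals, and the 29 to 19 with quantile normalization. Leaving out chips gave 6 to 19, 20 to 33 and 0 to 26, with 10 and 9 in the first comparison without Tg-18mo replicates 1 and 2, 6 and 8 without Tg-18mo-ACEI replicates 1 and 2, 20 and 24 in the second without Tg-18mo replicates 1 and 2, and 1, 0 and 18 in the third without Tg-18mo-ACEI replicates 1 and 2 and Tg-12mo replicate 1. Genes with opposite probe sets (2, 13 and 12) came to 0 in the first comparison with each chip divided by its median and to 1 without the filter, to 0, 8 and 7 without intensity trend, and in the third to 4 with quantile normalization. Leaving out chips gave 0 to 3, 8 to 13 and 7 to 13, with 8 in the second without Tg-18mo replicate 1 and 7 in the third without either Tg-18mo-ACEI replicate. The causes were not tested.

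With quantile normalization the sign of 7 results that had passed turned. In Tg-18mo-ACEI against Tg-12mo these were Rbfox1 on 2 probe sets (0.012 and 0.035), Celf5 (0.015), Celf4 (0.069), Aldoc (0.041) and Mbp (0.012), and in Tg-18mo against Tg-12mo Snap25 (0.072). None passed then. Of 312 results that had passed for members and named list genes, 200 kept their direction and side of the threshold under every alternative but the methods' t-test, and 17 under that too. Leaving out at least 1 chip ended 96 calls.

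Deviations of chips with equal replicate numbers correlated at -0.030, 0.034 and -0.052. These values cannot show how the chips were run. With the replicate block the counts were 49 and 15, 39 and 56, and 49 and 32. The shares over all tested were then 14.9% and 16.2%, 24.9% and 20.5%, and 21.3% and 16.7%. The unequal pairs came to 12, 35 and 23 and the genes with opposite probe sets to 1, 13 and 11. Of the 312 results, 14 did not pass.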

Other observations

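Probe sets annotated to several genes were kept out of the set, and 7 of them name Hnrnpa1 or Hnrnpa3 together with predicted copies, so that their signal cannot be given to 1 gene. Of 3 for Hnrnpa1, an abundant nuclear RNA-binding protein, 1423531_a_at rose with captopril (1856 and 1961 in Tg-18mo-ACEI, 1637 and 1526 in Tg-18mo, difference 0.27 ± 0.08, adjusted p = 0.025), whereas 1430019_a_at was higher with age (2435 and 2312 in Tg-18mo, 1887 and 1626 in Tg-12mo, difference 0.44 ± 0.09). The last, 1430020_x_at, did not pass in any comparison. Of 4 for Hnrnpa3, which takes part in mRNA trafficking, 1428262_s_at rose by 0.21 with captopril and 1452774_at fell by 0.14 on the log2 scale. Between the ages 1428262_s_at was lower (3967 and 3810.2 in Tg-18mo, 5566 and 5189.8 in Tg-12mo) and 1451184_at and 1452712_at were higher, by 0.20 and 0.17.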
